A study of Mus musculus with 16 samples.

Results

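Neutrophils are short-lived white blood cells that leave the blood for damaged or inflamed tissue. Their cytoplasm is filled with S100A8 and S100A9, a pair of calcium-binding proteins that join into calprotectin, and with granules of antimicrobial proteins. Primary granule genes and most secondary granule genes are transcribed while neutrophils mature in the bone marrow, whereas the S100 pair and the surface receptors are still transcribed in mature cells, and monocytes also carry the S100 pair. The neutrophil genes followed here are S100a8, S100a9, Csf3r, Ngp, Cxcr2, Camp, Ltf, Lcn2, Il1b and Retnlg. They were picked by name, and a probe set was taken for a gene if the platform annotation gave it exactly that 1 symbol. Each of the 10 genes had 1 such probe set, out of 22180 genes and 23521 probe sets with a single symbol. No brightness filter was set.

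The arrays measured RNA of whole gastrocnemius muscle, with a separate array for each of 16 male mice of strain FVB/n aged 16 weeks. Every mouse carried floxed Foxo1, Foxo3 and Foxo4 alleles, received 3 pI:pC injections at 4 to 5 weeks of age, and ate a high-fat diet (58% fat, 25.5% carbohydrate, 16.4% protein) for the last 8 weeks. Mice with the Mx1-Cre transgene (titles HF KO, n = 8) are called deletion mice, and their littermates without it (titles HF WT, n = 8) controls. The labels call the deletion endothelial-directed, although the Mx1 promoter that drives Cre answers to interferon in many cell types, blood-forming cells among them, and the labels do not say in which cells the alleles were lost. Cre itself and the loss of the FoxO genes cannot be told apart in this design. In whole tissue, fewer cells of a type and less RNA per cell cannot be told apart either.

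The median RMA value of an array ran from 4.43 to 4.61 (log2). An array's median is used here as a mark of brightness: a probe set under it is dim, and the difference of a dim probe set is compressed. Muscle markers were bright in both groups, and of 6 probe sets of skeletal muscle genes none passed the threshold (differences from -0.03 to 0.03). Of the 12 neutrophil markers on a list that holds 9 of the genes followed, Ly6g, the surface antigen that defines mouse neutrophils, and Mpo, Camp and Retnlg lay under the array median in every mouse.

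Both genes of the S100 pair were higher in the deletion mice. S100a8 read between 4.08 and 5.00 in the controls (median 4.43) and between 4.68 and 7.13 in the deletion mice (median 5.53). Of the deletion mice, 6 lay above every control, and mice 7 and 8 lay inside the control range; 2.10% of all probe sets had at least 6 such mice. The difference was 1.28 log2 units (SE 0.27, 95% interval 0.71 to 1.84, limma adjusted p = 0.0395), between 4.45 ± 0.28 and 5.72 ± 0.82 (SD, n = 8 each). S100a8 was above the array median in 2 of 8 controls and in all 8 deletion mice, and no fold is given because the control mean is dim. The call was lost with all probe sets tested (limma adjusted p = 0.0789), with a trended and robust variance (0.0508) and with dim values raised to the array median (1.10, limma adjusted p = 0.0897).

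S100a9 read between 3.78 and 4.50 in the controls (median 4.15) and between 4.60 and 6.33 in the deletion mice (median 5.55). The groups did not overlap: every deletion mouse lay above every control, an arrangement found in 0.179% of all probe sets. The difference was 1.38 (SE 0.21, 95% interval 0.95 to 1.82, limma adjusted p = 0.00379), between 4.16 ± 0.26 and 5.54 ± 0.60 (SD, n = 8 each), and S100a9 ranked 15th of 23521 probe sets by p. All 8 controls were under their array median, so the rise is given as at least 1.98-fold, taking 4.55, the controls' mean array median, as the lower level. A brightness filter asking for 8 of 16 mice over that median removes S100a9, which was over it in 7 mice, and keeps S100a8, over it in 10.

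Of the 10 neutrophil genes, S100a8 and S100a9 were the 2 that passed the threshold, both higher, where 0.502% of all probe sets passed as higher and 0.102% as lower. The exact two-sided permutation p over the 12870 splits of the mice was 4.66e-04 for S100a8 and 1.55e-04 for S100a9, the smallest that 8 against 8 mice can give. The S100a9 call held in all 16 fits that left out 1 mouse, with differences from 1.27 to 1.52. The S100a8 call was kept without control 4 or 8 or deletion mouse 3, 7 or 8, and lost without control 1, 2, 3, 5, 6 or 7 or deletion mouse 1, 2, 4, 5 or 6, with differences from 1.08 to 1.43 and limma adjusted p-values of at most 0.0784.

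**Figure D1:**
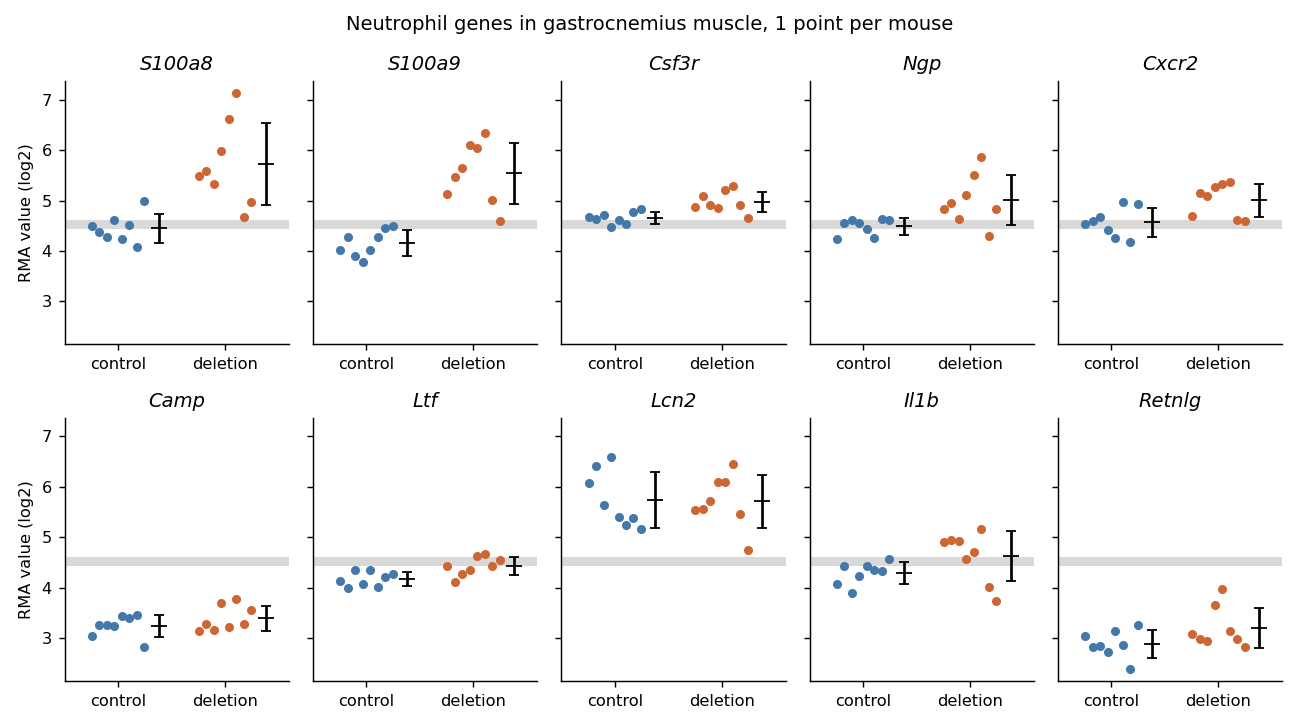
RMA values (log2, y axis) of the 10 neutrophil genes in the 8 controls and 8 deletion mice, mouse 1 to 8 from left to right within each group; black marks give the mean and SD, and the grey band spans the 16 array medians (4.43 to 4.61). S100a9 separates the groups fully, S100a8 separates 6 of 8 deletion mice, and Camp and Retnlg lie under the band in every mouse.

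S100a8 and S100a9 are neighbours on chromosome 3, with 0 protein-coding genes between them in the RefSeq annotation of GRCm38.p6. The next protein-coding genes on either side did not pass: S100a7a, another S100 gene, differed by -0.06 (SE 0.10), and Pglyrp4, which encodes a peptidoglycan recognition protein, by 0.17 (SE 0.14). The 250 bases before each start site are shown because the pair rose together. They are from RefSeq (GRCm38.p6), for S100a8 chr3:90668821-90669070 on the plus strand and for S100a9 chr3:90695722-90695971 on the minus strand. Each is written 5′ to 3′ along its gene, with matches to the motifs searched in capitals.
S100a8: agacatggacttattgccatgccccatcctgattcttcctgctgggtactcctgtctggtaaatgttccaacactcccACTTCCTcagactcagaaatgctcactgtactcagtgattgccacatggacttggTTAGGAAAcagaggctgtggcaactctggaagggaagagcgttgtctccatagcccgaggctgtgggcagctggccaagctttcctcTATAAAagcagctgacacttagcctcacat
S100a9: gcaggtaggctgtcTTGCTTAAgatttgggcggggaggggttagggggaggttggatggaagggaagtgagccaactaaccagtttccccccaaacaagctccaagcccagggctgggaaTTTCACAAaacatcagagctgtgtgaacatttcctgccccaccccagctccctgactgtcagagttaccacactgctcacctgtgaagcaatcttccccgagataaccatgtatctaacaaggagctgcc

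The motifs were searched on both strands: GTAAACA, the core bound by FoxO factors; TTNCNNAA, a loose form of the site of C/EBP factors, which act in granulocyte maturation; AGGAAGT, a core of the site of the myeloid factor PU.1; and the TATA box TATAAA. No motif overlapped another in these windows. The FoxO core was in neither window of the S100 pair, and among the 10 neutrophil genes it was found in 1, Retnlg, against 3.17% of all 32851 promoters of the same length. The C/EBP form matched in S100a8 (TTAGGAAA, from base 117 to base 110 before the start), at 2 places in S100a9 (TTGCTTAA and TTTCACAA), and in 7 of the 10 genes, and in 36.8% of all promoters. S100a8 also held the PU.1 core (present in 7.69% of promoters) and a TATA box from base 30 to base 25 before the start (12.4% of promoters), and S100a9 held neither of these letters. These matches describe the letters in the window only.

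The receptor genes Csf3r and Cxcr2 did not pass the threshold. Csf3r encodes the receptor for the growth factor G-CSF. It read between 4.47 and 4.83 in the controls (median 4.66) and between 4.65 and 5.28 in the deletion mice (median 4.91). Of the deletion mice, 7 lay above every control, and mouse 8 fell inside their range. The difference was 0.32 (SE 0.09, 95% interval 0.13 to 0.50, limma adjusted p = 0.114, unadjusted exact permutation p = 0.00186). The call was made in 1 of 16 fits without 1 mouse, that without deletion mouse 8 (0.36, limma adjusted p = 0.0325), in which 1.73% of all probe sets passed.

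Cxcr2 encodes the receptor by which neutrophils follow CXC chemokines. It read between 4.18 and 4.97 in the controls (median 4.57) and between 4.59 and 5.36 in the deletion mice (median 5.11), and the highest 5 deletion mice cleared the control range. The difference was 0.44 (SE 0.14, 95% interval 0.14 to 0.73, limma adjusted p = 0.181, unadjusted exact permutation p = 0.0155). Both receptors were near the array median, Csf3r above it in 14 of 16 mice and Cxcr2 in 11.

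None of the 4 granule genes passed the threshold, and their differences ran from -0.03 to 0.52. Ngp, the neutrophilic granule protein, read between 4.24 and 4.64 in the controls (median 4.55) and between 4.30 and 5.87 in the deletion mice (median 4.89). In Ngp 6 deletion mice lay above every control, mouse 6 the furthest. Ngp was above the array median in 4 of 8 controls and in 7 of 8 deletion mice. The difference was 0.52 (SE 0.17, 95% interval 0.17 to 0.86, limma adjusted p = 0.179, unadjusted exact permutation p = 0.0087).

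Ltf encodes lactoferrin, the iron-binding protein of secondary granules, and read between 3.99 and 4.35 in the controls (median 4.18) against 4.11 to 4.67 in the deletion mice (median 4.42). Although 6 deletion mice lay above every control, only 2 of all 16 mice were above their array median. The difference was 0.25 (SE 0.09, limma adjusted p = 0.214, unadjusted exact permutation p = 0.0109), and no fold is given for it.

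Camp encodes the cathelicidin antimicrobial peptide. It read between 2.82 and 3.45 in the controls (median 3.27) and between 3.15 and 3.78 in the deletion mice (median 3.28), under the array median in all 16 mice. The groups overlapped, with 3 deletion mice above every control and a difference of 0.15 (SE 0.11, limma adjusted p = 0.57).

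Lcn2 encodes lipocalin 2, which binds bacterial siderophores and is also made by many cells outside the neutrophil line. It exceeded the array median in all 16 mice. The controls ran from 5.16 to 6.58 (median 5.52) and the deletion mice from 4.75 to 6.46 (median 5.63). No deletion mouse lay above every control, and the difference was -0.03 (SE 0.24, 95% interval -0.52 to 0.46, limma adjusted p = 0.974).

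Il1b, the gene of the inflammatory cytokine interleukin 1 beta, read between 3.89 and 4.57 in the controls (median 4.34) and between 3.74 and 5.16 in the deletion mice (median 4.80). The deletion mice spread to both sides, 5 above every control and mouse 8 below every control, and the difference was 0.33 (SE 0.17, limma adjusted p = 0.411). Il1b was above the array median in 1 of 8 controls and in 6 of 8 deletion mice. Retnlg, a resistin-like gene of neutrophils, lay between 2.39 and 3.26 in the controls (median 2.85) and between 2.83 and 3.98 in the deletion mice (median 3.04). All 16 mice were under the array median for Retnlg, 2 deletion mice, 4 and 5, lay above every control, and the difference was 0.32 (SE 0.16, limma adjusted p = 0.383). For the dim Camp, Ltf and Retnlg, and for Il1b with its dim controls, a difference that the arrays compress cannot be told apart from a small one.

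Across the 10 genes 9 differences were above 0, where 45.3% of all probe sets had one, and the median difference was 0.32 against -0.02 over all probe sets. An unadjusted limma p under 0.05 was found for 6 genes as higher and for 0 as lower, where 7.00% and 6.52% of all probe sets had one. These genes were chosen with earlier results of the same data known, so the counts are a description.

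**Figure D2:**
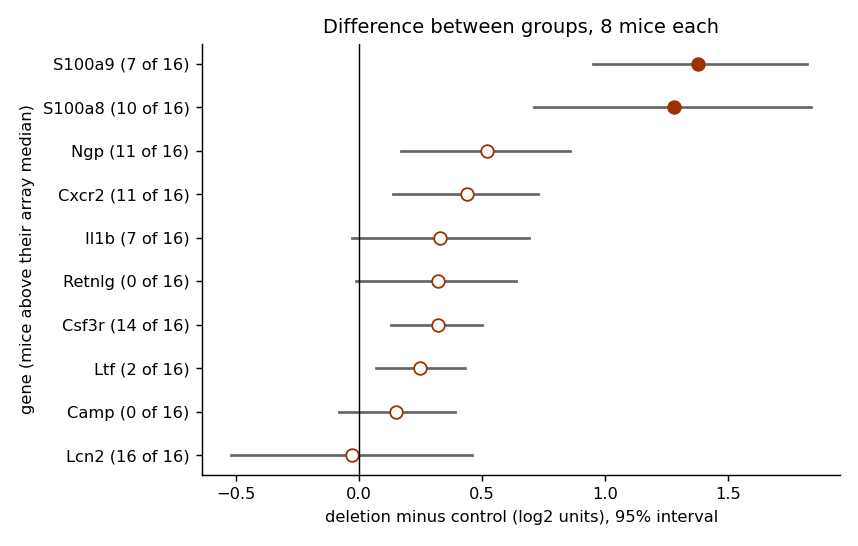
Difference in RMA value between deletion mice and controls (log2 units, x axis) with its 95% interval for each neutrophil gene, and beside each name the number of the 16 mice in which the gene exceeded its array median; filled points passed a limma adjusted p under 0.05. S100a9 at 1.38 and S100a8 at 1.28 stand apart from the other 8, which run from -0.03 to 0.52.

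Whether the S100a8 difference was matched by the others was asked within each mouse, by taking S100a8 minus the other gene and comparing that value between the groups. Against S100a9 the S100a8 difference was smaller by 0.10 (estimate -0.10, SE 0.33, 95% interval -0.76 to 0.55, limma adjusted p = 0.755, exact permutation p = 0.591). The SE, interval and limma p came from a variance pooled over comparisons that all share S100a8. They are not the precision of this pair, whose own SE was 0.19. The exact permutation p does not use that variance. The limma interval leaves room for a mismatch of either sign, up to its limits.

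For the other 8 genes the S100a8 difference was the larger, and the comparison passed. S100a8 exceeded Lcn2 by 1.31 (SE 0.33, limma adjusted p = 1.88e-04), Camp by 1.12 (limma adjusted p = 8.65e-04), Ltf by 1.03 (limma adjusted p = 0.00216) and Ngp by 0.76 (95% interval 0.11 to 1.42, limma adjusted p = 0.0223). It exceeded Csf3r by 0.96, Retnlg by 0.96, Il1b by 0.95 and Cxcr2 by 0.84 (limma adjusted p of at most 0.0117). The exact permutation p of each of these 8 single values was at most 0.00311. The same comparison passed for 99.4% of all 23520 other probe sets, so the 8 passes do not set these genes apart from other probe sets. All these comparisons share S100a8, so their limma intervals and p-values rest on rows that are not independent. The errors were moderated by limma to a common SE of 0.33. Taken from each pair alone the SE ran from 0.17 for Ngp to 0.31 for Camp, and was 0.19 for S100a9. For the dim Camp, Ltf and Retnlg, and for Il1b with its dim controls, the comparison cannot show a mismatch of transcript levels, since their differences are compressed. The Ngp comparison was lost without control 7 (0.69, limma adjusted p = 0.0502). Without the 6 mice with Alb above 9 none of the 8 passed (0.56 to 1.10, limma adjusted p from 0.0669 to 0.251, 6 against 4 mice). In that fit 2 of all 23520 comparisons passed. Without the 3 mice with Slc4a1 above 8 all 8 passed (0.51 to 1.10, limma adjusted p at most 0.0264). There 22471 of all 23520 passed, so neither count sets these genes apart from other probe sets.

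Among the deletion mice, 4 of the 9 other genes correlated with S100a8 after adjustment over the 18 relations computed. The share of all probe sets with such a correlation in the deletion mice was not counted. Deletion mouse 6 was the highest of the 8 deletion mice in 9 of the 10 genes, where it was highest in 10.7% of all probe sets, and Retnlg was the exception with mouse 5. Deletion mouse 8 was the lowest in 6 of the 10, where it was lowest in 15.1% of all probe sets, and among the highest 3 in Camp and Ltf. Mice 4, 5 and 6 were each above every control in 8 of the 10 genes, mice 1 and 2 in 6, mouse 3 in 5, mouse 8 in 4 and mouse 7 in 3. The share of all probe sets in which a given mouse lay above every control was not counted, so these counts are a description.

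Within the 8 deletion mice S100a8 correlated with S100a9 at Pearson r = 0.88 (exact permutation p = 0.00397, adjusted over 18 relations 0.0336) and Spearman rho = 0.88 (exact permutation p = 0.00724, adjusted 0.0326). Leaving out the 2 mice farthest from the S100a8 median gave r = 0.80. With Ngp r was 0.97 (exact permutation p = 2.23e-04, adjusted 0.00402) and rho 0.98 (exact permutation p = 3.97e-04, adjusted 0.00714), and r was 0.87 without the 2 farthest mice. Cxcr2 (r = 0.85, rho = 0.95) and Lcn2 (r = 0.85, rho = 0.88) also passed, with exact permutation p-values for r of 0.00642 and 0.00747, both adjusted to 0.0336, and r = 0.82 and 0.70 without the 2 farthest. Lcn2 thus followed S100a8 among the deletion mice although its group means, 5.74 and 5.71, were nearly equal. Csf3r (r = 0.80), Il1b (0.66), Retnlg (0.61), Ltf (0.48) and Camp (0.45) did not pass after adjustment.

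Within the 8 controls the relation of S100a8 to S100a9 did not pass (r = 0.17, exact permutation p = 0.707, rho = 0.10, exact permutation p = 0.84), and the median r over the 9 genes was 0.08, against 0.80 in the deletion mice. Whether the relations differ between the groups was not tested, and the controls' S100a8 values span a narrower, dimmer range.

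**Figure D3:**
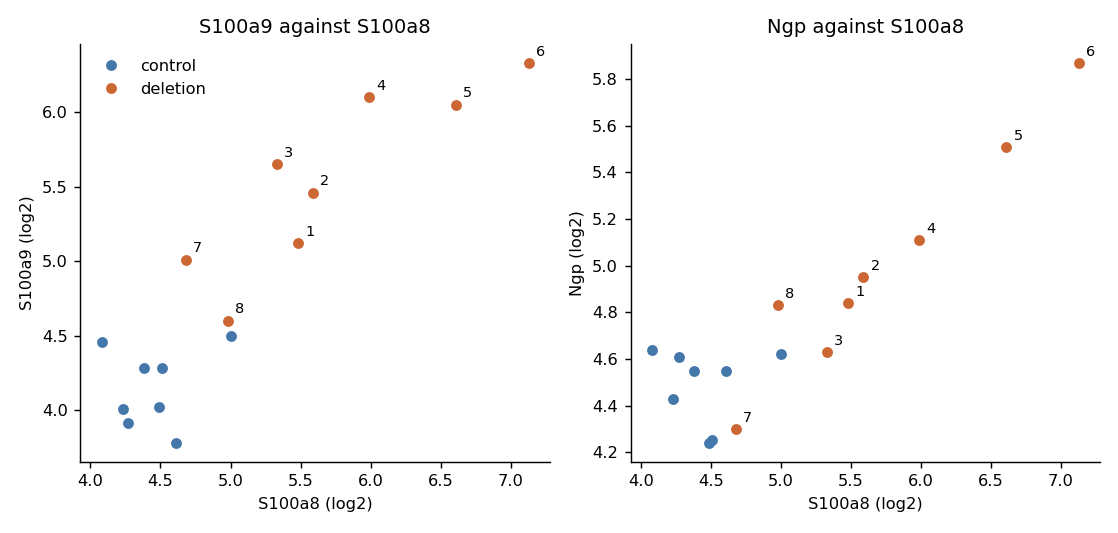
S100a9 (left) and Ngp (right) against S100a8 in each mouse, all as RMA values (log2), with the deletion mice numbered. In the deletion mice both rise with S100a8 (r = 0.88 and 0.97, n = 8), with mice 4, 5 and 6 at the upper end. Mice 7 and 8 lie inside the control range of S100a8 but above every control in S100a9 (5.01 and 4.60). In Ngp mouse 8 (4.83) lies above every control and mouse 7 (4.30) does not.

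By likeness over all 16 mice, after each group's mean was taken off, the 5 genes nearest to S100a8 were Ngp (r = 0.87), 1810009A15Rik (0.87), Actn1, which encodes the actin cross-linker alpha-actinin 1 (0.85), Hyal3, a hyaluronidase gene (0.79), and Crkl, an adaptor of signalling (0.78). S100a9 ranked 6th of 23520 (r = 0.78), Cxcr2 14th (0.75), Csf3r 94th (0.66), Il1b 177th (0.62) and Retnlg 272nd (0.59). Lcn2 ranked 431st (0.55), Ltf 2688th (0.33) and Camp 7048th (0.14). S100a8 varied more in the deletion mice (SD 0.82) than in the controls (SD 0.28), so the deletion mice weigh more in these values. Within the controls alone r with S100a8 was -0.03 for Ngp, 0.17 for S100a9 and 0.69 for Cxcr2, and none of these passed after adjustment. The r within the controls is not given here for 1810009A15Rik, Actn1, Hyal3 or Crkl. None of the 5 nearest genes passed the threshold between the groups. Actn1 came closest at 0.46 (SE 0.11, limma adjusted p = 0.0595; 0.53 and 0.00739 without deletion mouse 8), and 1810009A15Rik (-0.03), Hyal3 (0.09) and Crkl (-0.05) lay near 0.

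In a wider set of 9 lists of neutrophil biology, 94 of 97 genes were measured by 98 probe sets. Of these 98 probe sets 5 rose and 0 fell, and the median difference was 0.15, against 0.502% higher, 0.102% lower and a median of -0.02 over all probe sets. Without the 10 genes above, 3 of 88 rose and the median was 0.11. Beside the S100 pair the risers were Stfa2l1, Itgb2 and Il1r1.

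Stfa2l1 encodes a stefin A-like cysteine protease inhibitor of a family abundant in mouse neutrophils. It read between 3.11 and 3.75 in the controls and between 3.95 and 7.47 in the deletion mice, so the groups did not overlap. The difference was 1.61 (SE 0.34, limma adjusted p = 0.039), and since every control was under its array median the rise of the group mean is given as at least 1.45-fold. That mean includes mouse 6 at 7.47, where the other deletion mice read at most 5.28. Of the deletion mice, 5 of 8 were above their array median. The relatives Stfa1 (0.10), Stfa2 (-0.22) and Stfa3 (0.22) did not pass, and how far probes are shared within the family was not analysed here. Stfa2 and Stfa3 were under the array median in every mouse, and Stfa1 was above it in 1 deletion mouse and no control. Their differences may be compressed. The Stfa2l1 call was kept in 3 of 16 fits without 1 mouse, those without deletion mouse 6, 7 or 8, and lost in the other 13, with differences from 1.27 to 1.77 and limma adjusted p-values of at most 0.077. It was also lost with dim values raised to the array median (0.66, limma adjusted p = 0.449), with all probe sets (0.0789), with the trended variance (0.0568) and without the mice with high Alb (1.64, limma adjusted p = 0.362).

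Itgb2, the beta 2 chain of the leukocyte integrins, rose by 0.61 (SE 0.14, limma adjusted p = 0.0447), from between 5.85 and 6.43 in the controls to between 6.19 and 7.32. Its partner chain Itgam, which with it forms the complement receptor of neutrophils and macrophages, differed by 0.69 (SE 0.17, limma adjusted p = 0.068) and passed without deletion mouse 8 (0.78, limma adjusted p = 0.0161). Il1r1, the receptor for interleukin 1 that many stromal cells carry, rose by 0.50 (SE 0.11, limma adjusted p = 0.0427), and 7 deletion mice cleared the control range. The Itgb2 call was kept without control 4 or deletion mouse 4 or 8 and lost in 13 fits (limma adjusted p at most 0.0968), and that of Il1r1 was kept without deletion mouse 8 and lost in 15 (at most 0.0888). Both calls ended with quantile normalization, with all probe sets, and in the fits lacking high-Alb or high-Slc4a1 mice (Itgb2 0.57 to 0.73, limma adjusted p from 0.0638 to 0.285, and Il1r1 0.40 to 0.53, from 0.0562 to 0.412), and raised values ended that of Itgb2 (limma adjusted p = 0.0569).

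No primary granule probe set passed (0 of 7, median difference -0.12), with Prtn3, the gene of proteinase 3, at -0.27 (SE 0.14), Mpo, that of myeloperoxidase, at -0.12 (SE 0.10), Ctsc, the cathepsin that activates granule proteases, at -0.15, and the granule proteoglycan Srgn at 0.17. No secondary granule probe set passed either (0 of 12, median 0.26). Mmp8, neutrophil collagenase, came closest, from between 4.07 and 4.66 to between 4.43 and 5.16, a difference of 0.49 (SE 0.12, limma adjusted p = 0.0765, and 0.0417 without deletion mouse 8), while Cybb, the oxidase subunit shared with macrophages, stood at -0.07 (SE 0.17). In the list of tertiary granules and stefins (1 of 9, median 0.21) Anxa1, annexin A1, differed by 0.43 (limma adjusted p = 0.231) and Mmp25 by -0.05.

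Signals that call neutrophils in did not pass. Of 7 attractant and growth factor probe sets 0 passed (median -0.03): Csf3, the gene of G-CSF, differed by 0.22 (SE 0.09, limma adjusted p = 0.302), the platelet chemokine Ppbp by 0.43, Cxcl1 by -0.03 and Cxcl2 by -0.07. Of 6 probe sets of granulocyte transcription factors 0 passed (median 0.07), with Spi1, which encodes PU.1, at 0.35 (limma adjusted p = 0.314), Cebpa at 0.22, Cebpb at -0.11 and Gfi1 at -0.14. Among 22 surface receptor probe sets 1 passed (median 0.20), and the retention receptor Cxcr4 stood at -0.35 (SE 0.12, limma adjusted p = 0.194) and the antibody receptor Fcgr3 at -0.29. In the interleukin 1 list 1 of 14 passed (median 0.08), with Il1a at 0.42, the receptor antagonist Il1rn at -0.19 and Il33 at -0.07. In the list of oxidase and activation genes 0 of 10 passed (median 0.13), with the histamine-forming enzyme Hdc at 0.35, the oxidase subunit Ncf4 at 0.25, Padi4 at -0.18 and G0s2 at -0.25. Of the other genes in the S100 list, S100a11 differed by -0.06 and Ager, the receptor RAGE that binds S100 proteins, by -0.01.

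**Figure D4:**
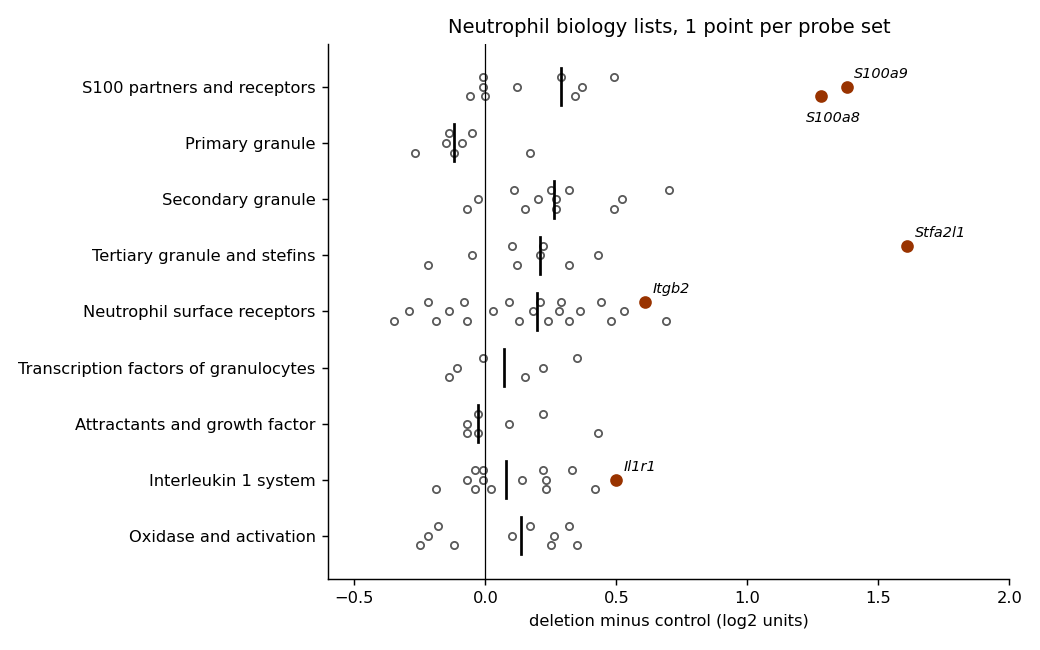
Difference between deletion mice and controls (log2 units, x axis) for every probe set of the 9 lists of neutrophil biology (y axis); black bars mark list medians, and filled points passed a limma adjusted p under 0.05. The 5 filled points, S100a8, S100a9, Stfa2l1, Itgb2 and Il1r1, lie to the right of 0, and the primary granule list centres on -0.12.

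Markers of red cells were highest in the deletion mice with the highest S100 values. The red cell markers with a single-symbol probe set, Slc4a1 (the anion exchanger of the red cell membrane) and Epb42 (a membrane skeleton protein), are 2 of a list of 10. Slc4a1 ran from 5.42 to 7.11 in the controls and from 5.62 to 10.18 in the deletion mice, where it was highest in mice 4 (10.18), 6 (9.11) and 5 (8.30), the same 3 mice in which S100a8 and S100a9 were highest. Neither red cell gene passed between the groups (Slc4a1 1.55, SE 0.49, limma adjusted p = 0.168, and Epb42 0.86, SE 0.33). The summed level of both ran from 6.04 to 7.50 in the controls and from 6.12 to 10.37 in the deletion mice. Without these 3 deletion mice S100a9 still rose, by 1.01 (limma adjusted p = 0.0248, 8 against 5 mice, 0.145% of all probe sets passing), and S100a8 differed by 0.76 (limma adjusted p = 0.106). Of the 5 deletion mice kept, mice 2 and 3 had Slc4a1 (7.43 and 7.45) above every control.

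**Figure D5:**
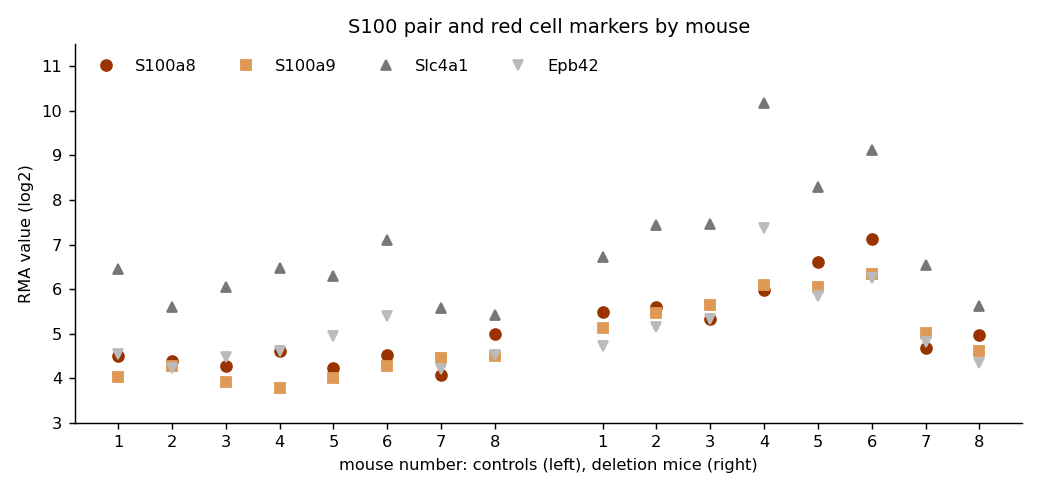
RMA values (log2, y axis) of S100a8, S100a9 and the red cell genes Slc4a1 and Epb42 in each of the 8 controls (left) and 8 deletion mice (right). Deletion mice 4, 5 and 6 hold the highest values of all 4 genes, and deletion mice 1, 2 and 3 have S100a8 and S100a9 above every control. Slc4a1 read 6.71 in deletion mouse 1, inside the control range, and 7.43 and 7.45 in mice 2 and 3, above every control (at most 7.11).

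Of 11 macrophage markers 4 rose (Vsig4, F13a1, C1qa and Mertk), where 0.502% of all probe sets rose, and their summed level ran from 9.90 to 10.69 in the controls and from 10.35 to 11.97 in the deletion mice. Of 5 monocyte markers 0 passed (summed level 6.81 to 7.47 against 7.07 to 7.55), of 6 mast cell and basophil markers 1 rose, Tpsb2 (8.07 to 9.65 against 8.63 to 9.56), and of 5 endothelial markers 2 rose, Cdh5 and Erg (10.81 to 11.19 against 11.09 to 11.66). Of 6 lymphocyte, 5 platelet and 5 skin marker probe sets 0 passed, with summed levels of 6.99 to 7.20 against 6.87 to 7.11, 7.98 to 9.53 against 8.24 to 9.59, and 6.99 to 7.40 against 7.05 to 7.30. No macrophage, monocyte or red cell marker probe set was under the array median in every mouse. The part of these cell types in the S100 result was not tested.

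Liver transcripts differed widely between mice of both groups: Alb exceeded 9 log2 units in controls 2 and 7 and in deletion mice 1, 2, 4 and 5, and the summed level of 8 liver genes ran from 7.67 to 11.75 in the controls and from 7.57 to 12.21 in the deletion mice. Deletion mouse 6, highest for the S100 pair, read 7.27 for Alb, and mice 4 and 5, the next highest for the pair, read 11.61 and 10.02. Without those 6 mice S100a9 differed by 1.31 and S100a8 by 1.01, and neither passed (limma adjusted p = 0.205 and 0.408), in a fit of 6 against 4 mice where 0.0255% of all probe sets passed.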

How the data were processed

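Total RNA (250 ng, RNeasy columns) was labelled with biotin by the Affymetrix procedure, per the labels' protocols. The authors deposited RMA values on a log2 scale for each probe set; the submitters' processing notes name RMA and the oligo package, without versions. The array design and build were not given in the sources used here. Values from 0.33 to 13.84 gave the log base. Each of the 16 columns belongs to 1 mouse. The platform annotation named 1 gene for 23521 of the 41345 probe sets, several for 1814 and none for 16010.

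Deletion mice and controls were compared in limma 3.58.1 (R 4.3.3; lmFit, then eBayes), two-sided, with group as the only term, no filter, and Benjamini-Hochberg adjustment over the 23521 single-symbol probe sets; the threshold was an adjusted p under 0.05. Single values were also tested by exact permutation of the mice, and correlations by all 40320 orderings within a group. Summed levels are log2 of the sum of the values put back on a linear scale. The procedure was tested on simulated data. Promoters, gene order and chromosomes come from RefSeq (GRCm38.p6); array coordinates are not given.

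The members and lists were chosen with earlier results of these data known. Genes named were the 10 neutrophil genes, the 2 higher and 2 lower genes of lowest p per list, and the 5 most like S100a8; S100a7a, Pglyrp4, Mpo, Ly6g, Stfa1, Stfa3, and the markers named were chosen after their values were seen. Alternatives were other scalings, filters, variance models, array weights, the mouse number as a block, and leaving out mice; leaving out mice by Alb or Slc4a1 was added after the data were seen. Scan batches were not given in the sources. Correlations between arrays ran from 0.973 to 0.990, and no 2 arrays were identical.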

Additional observations from a re-analysis of the deposited data

Results flagged for a closer look

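In 90 groups of 8 mice, over the genes named by the rule, 3 single mice stood apart from the rest of their group, where chance gives about 5% of groups. Stfa2l1 read 7.47 in deletion mouse 6, with the other deletion mice between 3.95 and 5.28. Prtn3 read 4.26 in deletion mouse 2, with the others between 4.79 and 5.24. Il1r1 read 6.30 in control 3, with the other controls between 6.63 and 6.91. None of the 10 neutrophil genes had such a mouse in either group.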

How the results depend on the processing

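S100a8 and S100a9 kept their direction in every alternative that tested them; S100a9 lost its call only without the 6 mice with high Alb (1.31). S100a8 lost its call with all probe sets tested, with a trended and robust variance and with the replicate block (1.28 each, limma adjusted p = 0.0789, 0.0508 and 0.0658), with dim values raised to the array median (1.10), without the mice with high Alb (1.01) or high Slc4a1 (0.76), and in 11 of 16 fits without 1 mouse (1.08 to 1.43). S100a8 minus S100a9 stayed between -0.30 and -0.03 and never passed. The count of neutrophil genes past the threshold, 2, became 1 with the filter (which does not test S100a9), all probe sets, the trended variance, the replicate block, raised values or without the mice with high Slc4a1, 0 without those with high Alb, and 1 to 3 without 1 mouse. The count over the neutrophil lists, 5, became 1 with all probe sets, 3 with quantile normalization, the trended variance or the replicate block, 2 with raised values or without the mice with high Slc4a1, 0 without those with high Alb, and 1 to 9 without 1 mouse (9 without deletion mouse 8). Over all probe sets 142 passed, against 249 with the filter, 69 with all probe sets, 226 with array weights, 222 with the trended variance, 79 with the replicate block, 366 at an adjusted p under 0.10, 6 without the mice with high Alb, 34 without those with high Slc4a1, and 51 to 407 without 1 mouse. The causes were not tested.

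Deviations of same-numbered mice of the groups correlated above 0.1 in 3 of 8 pairs (correlations from -0.10 to 0.13), and 5 of 16 mice correlated best with their own number. How many would do so by chance was not computed, so these values do not settle whether the numbers are pairs. The main fit did not take them as pairs. The replicate block ended the calls of S100a8, Itgb2 (limma adjusted p = 0.0959) and Il1r1 (0.110), and Itgam passed with it (0.0270).

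Differences that changed sign, none past the threshold, were Camp, Retnlg and Il1a with raised values (0.15, 0.32 and 0.42 before, -0.02 each after), Lcn2 with array weights (0.00) and between -0.14 and 0.11 without 1 mouse, Ager with centring (0.00), array weights (0.01) and without the mice with high Slc4a1 (0.02) and between -0.06 and 0.03 without 1 mouse, Cybb without the mice with high Slc4a1 (0.04) and Hyal3 (-0.20, and between -0.02 and 0.17 without 1 mouse). Without the mice with high Alb they were Retnlg (0.00), Ager (0.00), S100a11 (0.02), Cybb (0.02), Cxcl2 (0.06) and Il1rn (0.07), and without 1 mouse Cxcl2 (-0.14 to 0.01) and Cxcl1 (-0.06 to 0.00). The number of mice limits the precision, and dimness limits Camp, Retnlg, Ltf, Il1b and the other dim genes named above.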

Other observations

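In the controls S100a8 and Camp ran in opposite directions (r = -0.85, exact permutation p = 0.01, adjusted over 18 relations 0.036; rho = -0.81, exact permutation p = 0.0218, adjusted 0.0653). Without the 2 mice farthest from the S100a8 median r was -0.40, so the relation rests on those mice. All 8 controls were under the array median for Camp, and 6 of 8 for S100a8.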
